A study of Zea mays with 7 samples.

Results

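The genes described here are 86 maize genes whose mean level in *Bif3* ear primordia was at most 0.5 of the wild-type mean and whose highest *Bif3* pool lay below the lowest wild-type pool. Levels are given as CPM, the count of a gene over the total count of its pool, times 1000000. The rule took the 21292 genes with a mean of at least 1 CPM in wild-type, among 110451 genes in the count table, and 89 of them met it, which is 0.418% of those genes. 3 of the 89, the genes known as *WAB1*, *BA1* and *BAF1*, were left out by name. The differences between the genotypes chose these genes, so they are given below as a description and carry no test. The rule works on means: in 44 of the 86 genes all 4 *Bif3* pools were at or below 0.5 of the wild-type mean, and in the other 42 at least 1 *Bif3* pool was above it.

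RNA-seq covered ear primordia 3 to 4 mm long, in 4 pools of *Bif3* and 3 pools of wild-type, each pool made of 3 ears from field-grown plants. *Bif3* (*Barren inflorescence3*) is a mutation backcrossed into the inbred line B73 that carries a tandem duplication of the homeobox gene *ZmWUS1*. The Methods of the study describe the mutants as homozygous and the wild-type ears as those of siblings, while the sample labels give no zygosity and say that mutant ears were recognised by their appearance. The same B73 background is shared by both groups. The paper proposes that *Bif3* arose in a tropical line, so mutant ears can carry sequence of that donor line around *ZmWUS1*. A pool mixes ears, so values of single plants cannot be read.

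WUSCHEL is a homeobox transcription factor that keeps the stem cells of plant meristems. In the maize ear the inflorescence meristem gives rise to spikelet pair, spikelet and floral meristems on its flanks, and the primordium at this stage holds meristems, their boundaries, young lateral organs and vascular strands. Hormone signals, mobile proteins of the phosphatidylethanolamine-binding protein (PEBP) family and transcription factors of the TCP, WOX and GRAS families act in the initiation, growth and arrest of these meristems. In bulk tissue, fewer cells of a type and less RNA per cell cannot be told apart.

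The pools held between 42481699 and 50824983 counts in *Bif3* and between 41720131 and 56057512 counts in wild-type. A level of 3 counts, taken as the detection floor of a pool, was between 0.0535 and 0.0719 CPM. *ZmWUS1* had 4.47, 5.25, 3.83 and 12.5 CPM in the *Bif3* pools, against 0.551, 0.321 and 0.311 CPM in the wild-type pools, so the groups did not overlap and replicate 4 of *Bif3* was highest. The summed level of 8 ear genes was 802 to 954 CPM in *Bif3* and 697 to 888 CPM in wild-type. That of 13 photosynthetic leaf genes was 48.0 to 68.6 CPM in *Bif3* and 42.0 to 52.9 CPM in wild-type, with 3 or 4 of the 13 at 0 in each *Bif3* pool and 4 or 5 in each wild-type pool. Most of the leaf sum came from *Pep1*, *Ppdk1* and *ME1*. Most of the ear sum came from *kn1*, at 487 to 603 CPM in *Bif3* and 414 to 498 CPM in wild-type, so the sums say little of the other genes.

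The 86 genes were mostly genes of low level. Their median mean level in wild-type was 2.92 CPM, against 20.3 CPM for all 21292 genes, and 30 of the 86 (34.9%) had a wild-type mean under 2 CPM, against 9.05% of all genes. A mean of 10 CPM or more in wild-type was reached by 13 of the 86 (15.1%) and by 65.5% of all genes. The ratio of the *Bif3* mean to the wild-type mean had a median of 0.369, against 0.994 for all genes, with 4 members under 0.1, 16 under 0.25 and 36 between 0.4 and the limit of 0.5.

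The separation of the genotypes alone was common. No overlap, with *Bif3* lower, was found in 2053 of the 21292 genes (9.64%), and 139 genes had a mean at or below 0.5 of the wild-type mean, of which 50 overlapped between the genotypes. In 13 members every *Bif3* pool was under 0.5 of the lowest wild-type pool, whereas in 15 members the highest *Bif3* pool reached 0.9 or more of the lowest wild-type pool. The members just inside the limit were a Bowman-Birk type protease inhibitor gene (*GRMZM2G114552*, ratio 0.497), *WOX9C* (0.498) and *GRMZM2G400439* (0.499). The genes just outside it were *AC235534.1_FG007*, *GRMZM2G519409* and *GRMZM2G472449*, with ratios of 0.501, 0.502 and 0.503, so the limit divides a continuous range of ratios.

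**Figure D1:**
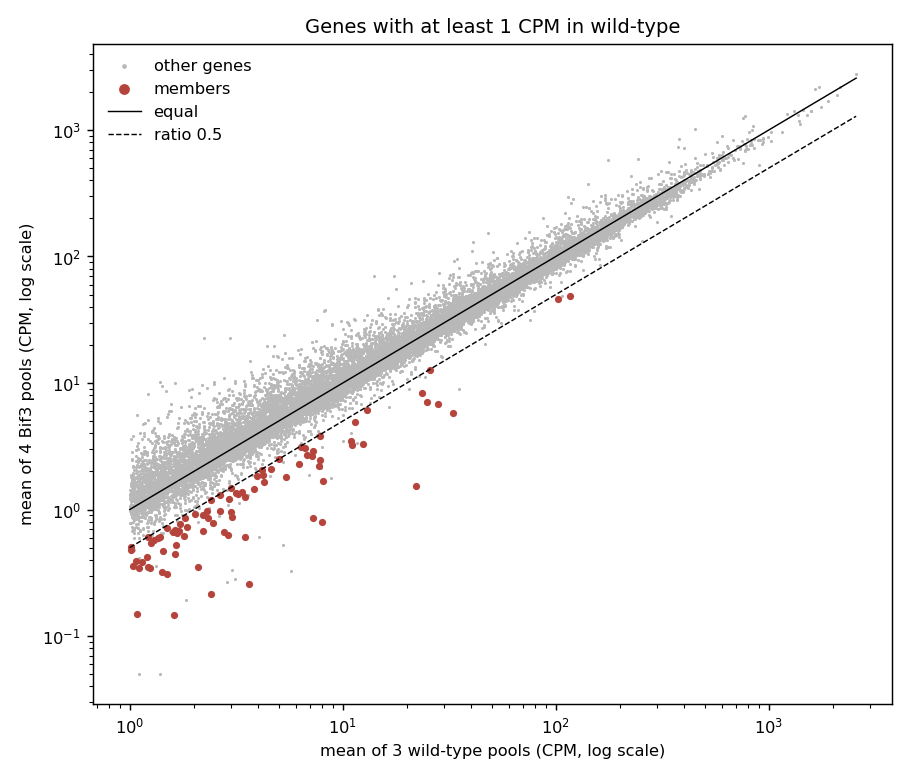
Mean CPM in the 4 *Bif3* pools (vertical) against mean CPM in the 3 wild-type pools (horizontal), both on log scales, for the 21292 genes with at least 1 CPM in wild-type. The 86 members (red) lie at or below the dashed line of ratio 0.5, most of them at the low end of the range; 2 other genes with lower *Bif3* means are drawn at 0.05 CPM.

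A first group of 7 members codes for proteins of branching, growth and hormone signals, with ratios between 0.204 and 0.366. *PEBP5* (*AC217051.3_FG006*), whose closest Arabidopsis gene *ATC* is a relative of the floral repressor *TFL1*, was the most abundant of them. It had 5.60, 3.84, 7.70 and 10.1 CPM in the *Bif3* pools, against 36.7, 22.3 and 25.1 CPM in the wild-type pools. All *Bif3* pools were under 0.5 of the lowest wild-type pool, and the *Bif3* mean of 6.81 ± 2.71 CPM (SD, n = 4) was 24.3% of the wild-type mean of 28.0 ± 7.63 CPM (SD, n = 3). *ZmTCP18* is annotated with *BRC1*, which in Arabidopsis keeps axillary buds from growing out, as its closest Arabidopsis gene. It had 0.235, 0.109, 0.470 and 0.413 CPM in the *Bif3* pools, against 1.92, 1.02 and 1.57 CPM in the wild-type pools, from 5 to 21 counts in a *Bif3* pool and 57 to 81 in a wild-type pool. The *Bif3* mean was 20.4% of the wild-type mean, with *Bif3* replicates 1 and 2 below 3 and 4.

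*ZmMAX1b* belongs to the cytochrome P450 group of *MAX1*, which in Arabidopsis acts in the synthesis of strigolactones, hormones that limit branching. Its levels were 0.235, 0.478, 0.962 and 0.787 CPM in the *Bif3* pools, against 2.30, 1.05 and 2.04 CPM in the wild-type pools. The groups were narrowly apart, since *Bif3* replicate 3 came to 0.914 of wild-type replicate 2. *GRMZM2G046313* codes for an RNA-binding protein close to Arabidopsis *TEL1*, and the maize founder of that family, *terminal ear1*, regulates leaf initiation. It had 1.98, 1.35, 2.95 and 2.62 CPM in the *Bif3* pools, against 8.65, 5.23 and 9.36 CPM in the wild-type pools. Its *Bif3* mean was 28.7% of the wild-type mean, and replicate 2 was the lowest pool of each genotype.

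The other members of this group code for a ligand and for receptors. *GRMZM2G167812* is annotated as an EPFL4-type peptide, a family that in Arabidopsis binds receptor kinases of the ERECTA type in stem growth, and had 1.18, 1.52, 1.48 and 0.885 CPM in the *Bif3* pools, against 3.07, 3.2 and 4.14 CPM in the wild-type pools. *GRMZM2G154987* is annotated as the abscisic acid receptor PYL2 (*PYL3* in the RefSeq gene table) and had 0.330, 0.499, 0.582 and 0.354 CPM in the *Bif3* pools, against 1.85, 1.48 and 1.57 CPM in the wild-type pools. Both had every *Bif3* pool at or under 0.50 of the lowest wild-type pool. *GRMZM5G849471*, a cysteine-rich receptor-like kinase gene, had 0.612, 0.478, 0.246 and 0.197 CPM in the *Bif3* pools, against 1.44, 1.05 and 0.932 CPM in the wild-type pools. Here *Bif3* replicates 3 and 4 were the low ones, the reverse of *ZmTCP18*.

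**Figure D2:**
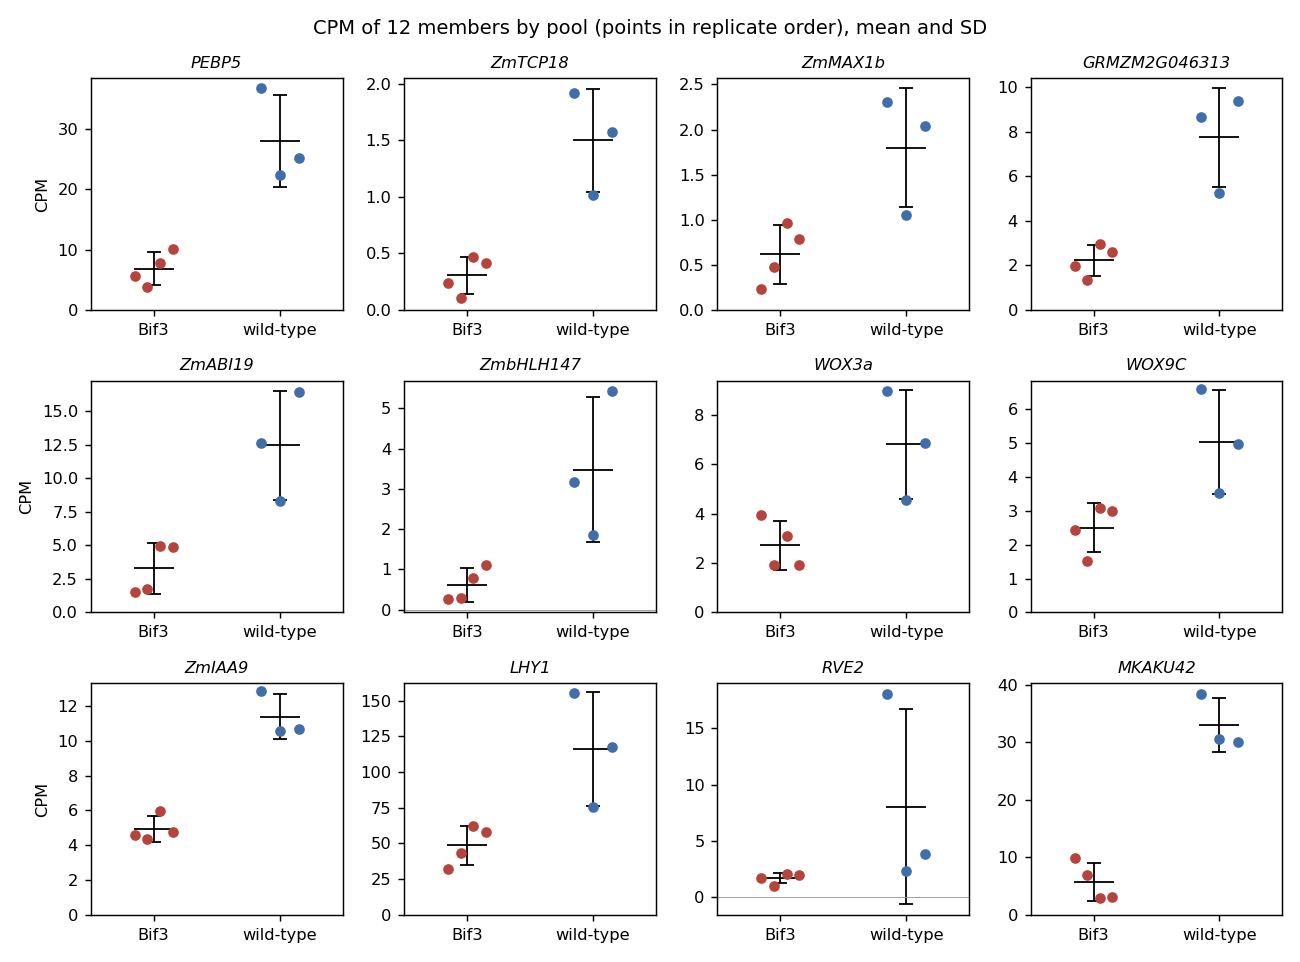
CPM of 12 members (vertical axis, linear scale, a scale of its own for each gene) in the *Bif3* pools (red, left) and wild-type pools (blue, right). Points are pools in replicate order, and the bar and whiskers are the mean and SD (n = 4 and n = 3). The pools of the genotypes do not overlap in any panel, because the rule required it, and *RVE2* has 1 wild-type pool at 18.1 CPM and the others at 2.30 and 3.79 CPM.

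Transcription factor genes made up 12 further members, with a median ratio of 0.319 (range 0.0710 to 0.498) and wild-type means between 1.24 and 12.5 CPM. The B3 gene *ZmABI19*, close to Arabidopsis *FUS3*, a regulator of seed maturation, was the most abundant and had 1.51, 1.78, 4.94 and 4.88 CPM in the *Bif3* pools, against 12.7, 8.31 and 16.4 CPM in the wild-type pools. *ZmbHLH147*, close to the Arabidopsis root hair regulator *RSL2*, had 0.259, 0.282, 0.783 and 1.12 CPM in the *Bif3* pools, against 3.16, 1.86 and 5.42 CPM in the wild-type pools. In both genes *Bif3* replicates 1 and 2 were the low pools, and wild-type replicate 3 was the highest of all. The other B3 gene, *ZmABI41*, had a ratio of 0.487.

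The 2 WOX members belong to the homeobox family of *ZmWUS1* itself. *WOX3a*, of the group whose maize members *NS1* and *NS2* act in the margins of leaf primordia, had 3.93, 1.91, 3.11 and 1.93 CPM in the *Bif3* pools, against 8.96, 4.55 and 6.87 CPM in the wild-type pools. *WOX9C*, of the group of Arabidopsis *WOX9*, which promotes meristem growth, had 2.42, 1.52, 3.09 and 3.01 CPM in the *Bif3* pools, against 6.59, 3.53 and 4.99 CPM in the wild-type pools. The ratios of their means were 0.40 and 0.498, and the highest *Bif3* pool came to 0.864 and 0.874 of the lowest wild-type pool, which was replicate 2 in both.

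A small spread among the *Bif3* pools was seen in the GRAS gene *ZmGRAS20* and the homeobox gene *ZmHB127*. *ZmGRAS20* (SCL1 type) had 0.306, 0.326, 0.380 and 0.275 CPM in the *Bif3* pools, against 1.29, 1.52 and 1.46 CPM in the wild-type pools, with SDs of 0.0441 in *Bif3* and 0.115 CPM in wild-type. *ZmHB127* had 0.847, 0.695, 0.828 and 0.767 CPM in the *Bif3* pools, against 3.04, 1.77 and 2.60 CPM in the wild-type pools. A *Bif3* pool held only 13 to 17 counts of *ZmGRAS20* and 32 to 39 of *ZmHB127*. The part of counting error in their spread was not tested. *ZmMADS26*, a MADS-box gene, was near 1 CPM in wild-type and had 0.235, 0.239, 0.425 and 0.472 CPM in the *Bif3* pools, against 1.49, 0.963 and 1.28 CPM in the wild-type pools. The *Bif3* pools of these 3 genes were all under 0.5 of the lowest wild-type pool.

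*ZmSRS5*, of the SHI family that in Arabidopsis promotes auxin synthesis genes, had 0.588, 0.499, 0.626 and 0.394 CPM in the *Bif3* pools, against 2.01, 1.11 and 1.81 CPM in the wild-type pools. Ratios of the remaining transcription factor members were 0.460 for the bZIP gene *LRS1* (*AC232238.2_FG004*, close to the Arabidopsis anther gene *TGA9*), and 0.415 for *ZmGRAS16*. *GRMZM2G116592*, annotated as a CCCH zinc finger gene, had the second lowest ratio of all members, 0.0710, with 0.235, 0.261, 0.358 and 0.177 CPM in the *Bif3* pools, against 6.62, 0.375 and 3.90 CPM in the wild-type pools. Its wild-type replicate 2 lay at the level of the *Bif3* pools, with 21 counts against 9 to 16, and without wild-type replicate 1 the ratio was 0.121.

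The auxin response had 2 members. *ZmIAA9* codes for an Aux/IAA protein, a repressor that is degraded when auxin is perceived, and *ZmARF5* for an auxin response factor, the class of proteins that Aux/IAA proteins bind. *ZmIAA9* had 4.59, 4.39, 6.0 and 4.76 CPM in the *Bif3* pools, against 12.9, 10.6 and 10.7 CPM in the wild-type pools. Its highest *Bif3* pool was 0.566 of the lowest wild-type pool, and the pools of each genotype were close together, with a *Bif3* mean of 4.93 ± 0.724 CPM (SD, n = 4) and a wild-type mean of 11.4 ± 1.29 CPM (SD, n = 3). *ZmARF5* was lower in level and nearer to the limit, with 0.541, 0.456, 0.805 and 0.610 CPM in the *Bif3* pools, against 1.01, 1.07 and 1.57 CPM in the wild-type pools. *IGPS1*, for an enzyme of tryptophan synthesis upstream of auxin, had a ratio of 0.440.

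The clock-type MYB genes *LHY1* and *RVE2* were both members. *LHY1*, a morning-phased component of the circadian clock in plants, had the highest wild-type level of all 86 genes. It had 32.1, 43.2, 62.1 and 57.8 CPM in the *Bif3* pools, against 155, 75.5 and 117 CPM in the wild-type pools. *Bif3* replicates 1 and 2 were the low pools, and the wild-type pools spanned 75.5 to 155 CPM, so that the *Bif3* mean of 48.8 ± 13.7 CPM (SD, n = 4) stood against a wild-type mean of 116 ± 39.9 CPM (SD, n = 3). Without wild-type replicate 1 its ratio was 0.506, just over the limit, against 0.421 with it. *RVE2*, a relative of *LHY1*, had 1.72, 0.999, 2.01 and 1.95 CPM in the *Bif3* pools, against 18.1, 2.30 and 3.79 CPM in the wild-type pools. Its ratio of 0.207 rested on wild-type replicate 1, and without that pool it was 0.549, over the limit.

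Enzymes, transporters and proteins of cell structure made up 27 members, with a median ratio of 0.363 (range 0.101 to 0.497). *MKAKU42*, for a protein of the inner nuclear envelope, was the most abundant of them and had 9.93, 6.97, 2.95 and 3.15 CPM in the *Bif3* pools, against 38.4, 30.5 and 30.1 CPM in the wild-type pools. The *Bif3* mean was 17.4% of the wild-type mean, and *Bif3* replicates 3 and 4 had less than replicates 1 and 2. A dynamin-related gene, of a family that pinches membranes, *GRMZM2G150827*, showed the same order of *Bif3* pools, with 2.07, 0.803, 0.0447 and 0.295 CPM in the *Bif3* pools, against 9.61, 5.32 and 8.95 CPM in the wild-type pools. Its ratio was 0.101, and 0.0479 without *Bif3* replicate 1. The prolyl oligopeptidase gene *GRMZM2G322819* was low in all *Bif3* pools alike, with 0.683, 0.782, 1.01 and 0.944 CPM in the *Bif3* pools, against 5.18, 5.83 and 10.8 CPM in the wild-type pools.

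Metabolic genes of this group were lower in level. The asparagine synthetase gene *ASN3* had 1.20, 0.499, 1.05 and 1.10 CPM in the *Bif3* pools, against 4.17, 1.62 and 3.13 CPM in the wild-type pools. *GRMZM2G120938*, for a fatty acyl-CoA reductase, an enzyme that makes the fatty alcohols of surface waxes, had 1.04, 0.434, 0.604 and 0.630 CPM in the *Bif3* pools, against 2.16, 1.66 and 2.82 CPM in the wild-type pools. *ZIP8*, of a metal transporter family, had 1.86, 1.74, 2.68 and 3.64 CPM in the *Bif3* pools, against 6.4, 4.28 and 12.9 CPM in the wild-type pools. The *Bif3* means of these 3 genes were 32.4%, 30.6% and 31.6% of the wild-type means, and the wild-type pools of *ZIP8* were the most unequal, with replicate 3 highest.

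*GRMZM2G110369*, a counterpart of Arabidopsis *DMR6*, which lowers salicylic acid, had a ratio of 0.292, with *Bif3* replicate 4 at 0.984 of the lowest wild-type pool, and 0.191 without that *Bif3* pool. Genes acting on actin were *GRMZM2G556845*, for a fimbrin that bundles filaments (ratio 0.416), and *GRMZM2G056750*, close to Arabidopsis *SCAR2*, which activates the nucleation of filaments (0.462). Genes of sugar and nucleotide metabolism were *GRMZM2G347841* for an adenylate kinase (0.330), *GRMZM2G311969* for a heteroglycan glucosidase (0.332) and *GRMZM2G177510* for a glucan endo-1,3-beta-glucosidase (0.363). The protease inhibitor gene *GRMZM2G114552*, 1 of the 6 most abundant members, had 14.3, 14.6, 10.3 and 11.7 CPM in the *Bif3* pools, against 30.9, 24.6 and 21.5 CPM in the wild-type pools.

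Without wild-type replicate 1 the ratio of 7 genes of this group was over 0.5. *GRMZM2G152958* (annotated as a dihydrolipoyl dehydrogenase) had 0.306, 0.347, 0.425 and 0.334 CPM in the *Bif3* pools, against 5.20 CPM in that wild-type pool and 0.624 and 0.466 CPM in the others, and its ratio was 0.168 with the pool and 0.648 without it. *GRMZM2G302245*, annotated RCC1, had ratios of 0.317 with it and 0.662 without it. For *GRMZM2G062129* (annotated ATA15) they were 0.290 and 0.516, and for *GRMZM2G160990* 0.421 and 0.526. *GRMZM2G058690*, annotated as a calmodulin-binding IQ-domain gene, had 0.440 with the pool and 0.538 without it, and *GRMZM2G114552* and *GRMZM2G077989* were within 0.01 of the limit even with the pool. The same wild-type pool was high in heat shock and chaperone genes, whose summed level over 23 genes was 1773 to 2462 CPM in *Bif3* and 3242, 2086 and 2354 CPM in wild-type replicates 1, 2 and 3. The part of this difference in the ratios that rest on the pool, that of *RVE2* included, was not tested.

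The remaining members of the 27 code for a RING/U-box protein (*GRMZM2G053909*, ratio 0.239), a calmodulin-binding protein (*GRMZM2G429807*, 0.378), a peroxygenase (*GRMZM2G040121*, 0.411), a zinc knuckle protein (*GRMZM5G888860*, 0.428), an alternative NAD(P)H dehydrogenase (*GRMZM2G563190*, 0.429), a phospholipid flippase (*GRMZM2G407825*, 0.477), an RS21-C6 protein (*GRMZM2G077989*, 0.492) and a Pumilio RNA-binding protein (*GRMZM2G155806*, 0.492).

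No functional name was found for 36 members (41.9%), and most of them were low in level: their median wild-type mean was 1.84 CPM, and 19 of the 36 were under 2 CPM. The most abundant were *GRMZM2G118490* with 49.6, 35.0, 50.6 and 49.9 CPM in the *Bif3* pools, against 103, 86.5 and 117 CPM in the wild-type pools, and *GRMZM2G487197* with 5.79, 3.97, 9.89 and 8.60 CPM in the *Bif3* pools, against 29.6, 17.9 and 26.7 CPM in the wild-type pools. Both had every *Bif3* pool under 0.6 of the lowest wild-type pool. *GRMZM2G009632* had the lowest ratio of all members, 0.0689, with 167, 98, 1 and 0 counts in the *Bif3* pools, against 1470, 856 and 809 counts in the wild-type pools. Its *Bif3* replicates 3 and 4 were at or under the detection floor, whereas replicates 1 and 2 had 3.93 and 2.13 CPM, and without *Bif3* replicate 1 the ratio was 0.0325.

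Very low *Bif3* pools were found in 5 members in all, each with at least 1 *Bif3* pool at or under 3 counts. *GRMZM2G474033* had 14, 12, 0 and 0 counts in the *Bif3* pools, against 98, 58 and 76 in wild-type, the same split of replicates as *GRMZM2G009632*. *GRMZM6G423719* had 18, 0, 6 and 15 counts in *Bif3*, against 77, 74 and 207 in wild-type. The remaining ones were *GRMZM2G110847*, with 1, 15, 4 and 8 counts in *Bif3*, against 70, 23 and 60 in wild-type, and *GRMZM2G150827*, with 2 counts in *Bif3* replicate 3. Each of these 5 genes had at least 1 *Bif3* pool above the floor, so that none was undetected in the mutant as a whole. Their ratios moved with single pools: that of *GRMZM2G474033* was 0.0911, and 0.0536 without *Bif3* replicate 1, that of *GRMZM6G423719* was 0.0891, and 0.135 without wild-type replicate 3, and that of *GRMZM2G110847* was 0.137, and 0.0831 without *Bif3* replicate 2.

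*GRMZM2G562647*, *GRMZM2G562644* and *GRMZM2G562650* had nearly the same ratios (0.353, 0.367 and 0.370) and similar proportions to each other across the pools. *GRMZM2G562644* had between 25.8% and 37.1% of the counts of *GRMZM2G562647* in the *Bif3* pools and between 30.1% and 30.6% in the wild-type pools. For *GRMZM2G562650* the range was 9.37% to 11.3% in *Bif3* and 9.63% to 9.97% in wild-type. Counts of overlapping or near-identical gene models are uncertain here, since the strand setting of the counting is not given in the sources used here, so these 3 may not be separate observations.

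**Figure D3:**
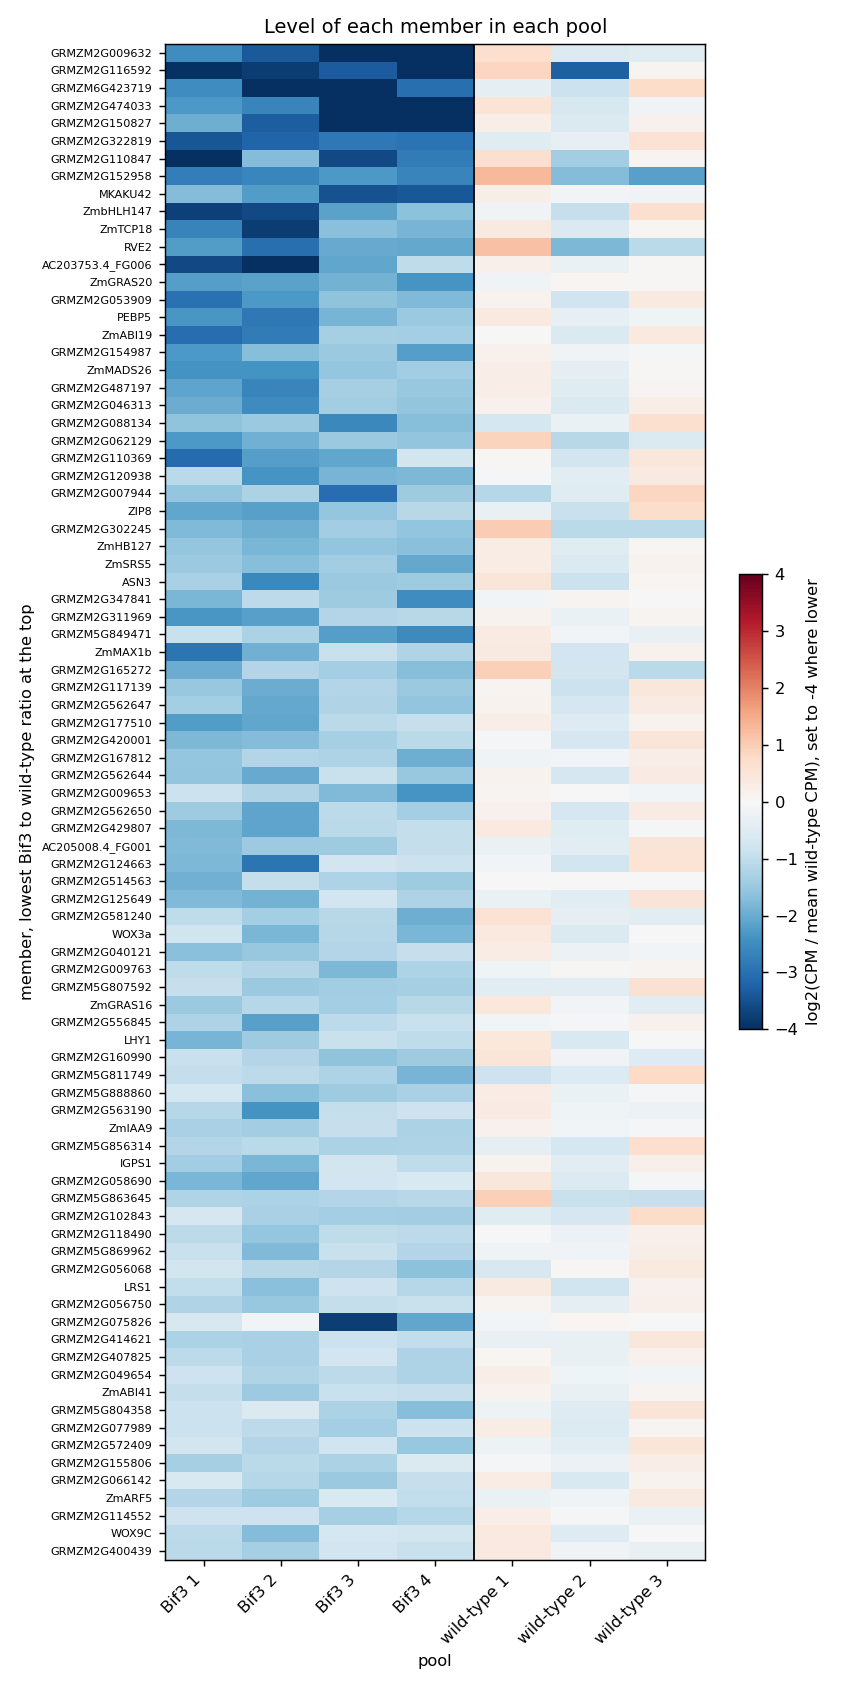
Level of each of the 86 members (rows, lowest ratio at the top) in each of the 7 pools (columns, *Bif3* left of the black line), as log2 of the CPM over the wild-type mean of the gene, drawn at -4 where it was lower. *Bif3* columns are blue throughout because the rule required lower levels, and wild-type replicate 2 is light blue in most rows.

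The order of the pools in the members was not that of all genes. Wild-type replicate 2 was the lowest wild-type pool in 59 of the 86 members (68.6%), against 31.1% of all 21292 genes, and its median level was 0.721 of the wild-type mean of the gene, against 1.12 in replicate 1 and 1.08 in replicate 3. *Bif3* replicate 2 was the lowest *Bif3* pool in 38 members (44.2%), against 19.3% of all genes. The medians of the members were 0.342, 0.301, 0.393 and 0.377 of the wild-type mean in *Bif3* replicates 1 to 4, and the medians of all genes were between 0.957 and 1.02 in the same pools. The median coefficient of variation of the members was 0.278 over the *Bif3* pools and 0.315 over the wild-type pools, against 0.0942 and 0.0958 for all genes. The members were mostly of low level, and the part of this in their spread was not tested.

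Order among the *Bif3* pools fell into opposite patterns. In 41 members (47.7%) replicates 1 and 2 were both below replicates 3 and 4, against 19.0% of all genes, and these included *ZmTCP18*, *PEBP5*, *ZmMAX1b*, *ZmABI19*, *ZmbHLH147*, *LHY1* and *ZmIAA9*. In 16 members (18.6%) replicates 3 and 4 were both below 1 and 2, against 29.7% of all genes, among them *MKAKU42*, *GRMZM2G150827*, *GRMZM2G009632* and *GRMZM5G849471*. The labels name no batch, and the part of these differences between pools in the ratios was not tested.

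**Figure D4:**
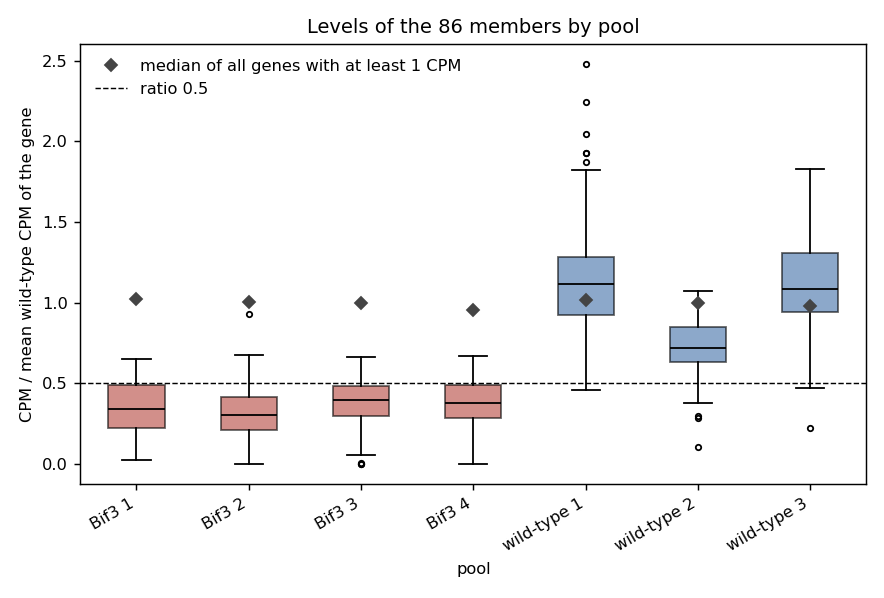
CPM over the wild-type mean of the gene (vertical axis) for the 86 members in each pool, *Bif3* (red) on the left and wild-type (blue) on the right. Boxes show quartiles and median, whiskers reach at most 1.5 times the box length, circles are members beyond them, and diamonds are the medians of all 21292 genes, which stay between 0.957 and 1.02 while the members' wild-type replicate 2 median is 0.721.

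The number of genes that met the rule depended on the wild-type pools. With each *Bif3* pool left out in turn 81 to 104 genes met it. Without wild-type replicate 1 or 3 the numbers were 84 and 80, but 20 and 21 of the 86 were lost, and without wild-type replicate 2 it was 157. These repeats reuse the values that chose the genes, and a gene without overlap stays so when a pool is left out. Only the ratio of means or the limit of 1 CPM can fail a member, while other genes can newly meet the rule. In all 7 of these repeats 45 of the 86 met the rule, among them *PEBP5*, *ZmTCP18*, *ZmMAX1b*, *ZmABI19*, *ZmbHLH147*, *ZmGRAS20*, *ZmHB127*, *WOX3a*, *ZmIAA9* and *MKAKU42*. *LHY1*, *RVE2*, *ZmARF5*, *WOX9C*, *LRS1* and *ZmABI41* did not. In the fit of all 40650 genes with edgeR, which uses the same contrast and adds nothing independent, 80 of the 86 were past the threshold (p under 0.05, adjusted p under 0.1 and a fold change over 1.5) and lower in *Bif3*, where 0.598% of all genes were.

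By gene order in a RefSeq table of assembly NAM-5.0, from which no coordinates were taken, 37 of the 86 members (43.0%) and 59.2% of all genes could be placed. They were spread over 9 of the 10 chromosomes, with 7 of the 37 (18.9%) on chromosome 3, where 10.5% of the placed genes lie, and none on chromosome 9. *MKAKU42* is also given on chromosome 2 but was not among the placed members. Among the placed members, the nearest to *ZmWUS1* was *GRMZM2G009653* on chromosome 2, with 8 placed genes between them. It had 3.41, 2.74, 1.83 and 1.22 CPM in the *Bif3* pools, against 6.66, 6.23 and 5.82 CPM in the wild-type pools. *Bif3* replicates 3 and 4 were the low pools, and the wild-type pools were close together. Whether sequence of the donor line at this gene affects its counts was not tested. This gene was the only member among the 50 placed genes nearest to *ZmWUS1*, and no placed members stood within 10 places of each other.

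Other genes of the members' pathways, which the rule did not select, were compared as well. Lists of these genes were taken by symbol from the same gene table, and 151 genes on them that did not meet the rule were fitted. Genes that the table names otherwise are not on the lists, and a list of CLE genes came out empty. The lists were chosen with earlier results of these data known, so they give no independent support. Leaving out the genes that met the rule takes away lower genes, and *ZmWUS1* itself is on the WOX list. Of the 151, 7 (4.64%) were past the threshold and lower in *Bif3*, where 0.598% of all genes were, and 10 (6.62%) were higher, where 3.39% of all genes were. The shares of all genes are over the 40650 fitted, which needed only 2 counts in total. Of the 17 calls, 6 held with every pool left out in turn, and 11 were lost without at least 1 pool. With each pool left out, 2 to 11 of the listed genes were lower and 7 to 16 higher.

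Among the WOX genes the only one past the threshold and higher was *ZmWUS1*, the gene duplicated in *Bif3*. Apart from *WOX3a* and *WOX9C*, 9 were fitted, *ZmWUS1* included, of which *wox2A* and *wus2* were past the threshold and lower. The log2 fold change was negative in 6 of the 9. It was -1.07 for *NS1*, which did not pass the threshold. *wox2A* had 1, 2, 0 and 0 counts in the *Bif3* pools, against 9, 13 and 17 in those of wild-type. *wus2* had 0, 0, 3 and 0 counts in *Bif3*, against 18, 10 and 7 in wild-type. Every *Bif3* pool of both genes was at or under the detection floor. The pooled *Bif3* level was 0.0624 of the wild-type level for *wox2A* (exact 95% interval 0.0123 to 0.196) and 0.0695 for *wus2* (0.0137 to 0.221), and these intervals cover counting error only. The adjusted p in the edgeR quasi-likelihood test (Benjamini-Hochberg adjusted) was 0.0202 for *wox2A*, which held without each pool, and 0.0550 for *wus2*, which was lost when any 1 of 4 pools was left out.

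In the PEBP family, where *PEBP5* was a member, 11 other genes were fitted and *ZCN14*, close to the Arabidopsis flowering signal *FT*, was higher. It had 13.3, 13.8, 4.27 and 6.55 CPM in *Bif3*, against 1.44, 2.03 and 0.757 CPM in wild-type. The log2 fold change was 2.70 ± 0.42 (SE), with an adjusted p of 0.00736 in the edgeR quasi-likelihood test (Benjamini-Hochberg adjusted). *ZCN14* held its call without each pool. Its *Bif3* replicates 1 and 2, the low pools for *PEBP5*, were its high pools.

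Of 34 other Aux/IAA and ARF genes on the list, 2 were lower and 1 was higher. *BIF4*, for an Aux/IAA protein, was not on the list under that symbol. The paper reports *BIF4* as up-regulated in *Bif3*, so the list does not cover all Aux/IAA genes reported as changed. The higher gene, *AUX18* (annotated *ZmIAA4*), had 14.8, 17.0, 9.51 and 11.7 CPM in *Bif3*, against 6.35, 6.74 and 5.67 CPM in wild-type. Its adjusted p was 0.0103 in the edgeR quasi-likelihood test (Benjamini-Hochberg adjusted). The lower genes *AUX1* (an Aux/IAA gene, annotated *ZmIAA18*) and *AUX9* (*ZmIAA26*) had log2 fold changes of -1.15 and -0.82, and each lost its call without 5 or 6 of the 7 pools.

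Gibberellin and abscisic acid genes other than *GRMZM2G154987* were 10, of which 3 were higher and none was lower. The DELLA genes *D8* and *d9*, repressors of gibberellin responses, had log2 fold changes of 0.64 ± 0.14 and 0.73 ± 0.12 (SE), and the abscisic acid receptor gene *PYL10* (*GRMZM2G063882*) had 0.61 ± 0.10. Adjusted p-values in the edgeR quasi-likelihood test (Benjamini-Hochberg adjusted) were 0.0290, 0.0106 and 0.00925. Another gene with the symbol *PYL10*, *GRMZM2G165567*, had a log2 fold change of 0.16 and did not pass the threshold. *GRMZM2G154987*, of the same receptor family, was chosen as lower. Other genes under its symbols, *GRMZM2G134731* (*PYL2*) and *GRMZM2G047677* (*PYL3*), had log2 fold changes of 0.29 and 0.33 and did not pass the threshold. *d9* held its call without each pool, *D8* lost it when any 1 of 3 pools was left out, and *GRMZM2G063882*, close to the fold limit, when any 1 of 4 was.

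Cytokinin genes gave 2 higher and 2 lower of 28. No *LONELY GUY* (*LOG*) gene, for a cytokinin-activating enzyme, was on the list under that symbol. The paper reports some *LOG* genes as down-regulated in *Bif3*, so the list does not cover all cytokinin genes reported as changed. The response regulator *abph1*, which limits meristem size in maize, had 5.70, 4.21, 7.43 and 12.5 CPM in *Bif3*, against 2.13, 1.94 and 3.57 CPM in wild-type, and *crr2* had a log2 fold change of 0.91. The lower genes were *aprt1* (log2 fold change -0.69) and *CKX5*, a cytokinin oxidase gene (-2.72). Calls of all 4 were lost without at least 1 pool. For *abph1*, *crr2* and *CKX5* the highest adjusted p-values were 0.129, 0.179 and 0.309 in the edgeR quasi-likelihood test (Benjamini-Hochberg adjusted). For *aprt1* the log2 fold change was -0.58 without wild-type replicate 2, inside the fold limit.

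Heat shock and chaperone genes had 1 higher, *HSF2* (log2 fold change 1.02), and 1 lower, *hsp22*, of 23. *hsp22* had 0.353, 0.282, 0.447 and 0.216 CPM in *Bif3*, against 15.7, 0.392 and 1.09 CPM in wild-type. Its log2 fold change was -4.15, and the call was lost when any 1 of 4 pools was left out (*Bif3* replicate 1, 2 or 4, or wild-type replicate 1), with -1.23 without wild-type replicate 1. That pool stood apart in the list: it was over 2 times each of the other 6 pools in 9 of the 23 genes. *HSP90-1*, a chaperone gene, had 28.6, 22.4, 35.2 and 39.4 CPM in *Bif3*, against 157, 37.5 and 33.7 CPM in wild-type, and *Hsp70* had 31.1, 44.6, 57.2 and 62.9 CPM in *Bif3*, against 212, 37.3 and 73.2 CPM in wild-type. *TCP4* was the 1 gene past the threshold of 7 other TCP genes (log2 fold change 0.64), and lost its call when any 1 of 3 pools was left out.

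None of the 3 other clock genes in the list was past the threshold beside *LHY1* and *RVE2*. *gigz1a* had 744 to 932 CPM in *Bif3*, against 595 to 795 CPM in wild-type, *gigz1b* had 275 to 348 CPM in *Bif3*, against 184 to 280 CPM in wild-type, and *PRR59* had 74.8 to 95.6 CPM in *Bif3*, against 69.6 to 87.5 CPM in wild-type. Their log2 fold changes were 0.25, 0.41 and 0.15, all of the opposite sign to that of *LHY1*, and wild-type replicate 1 was the lowest wild-type pool in all 3 and the highest in *LHY1* and *RVE2*. The other strigolactone genes *CCD7*, *CCD8* and *MAX1a* were below 1 CPM in every pool, and none passed the threshold. No gene passed it among the other HD-ZIP IV (4 fitted), boundary (12), LBD (1), cuticle (4) and B3 (2) genes of the lists. The HD-ZIP IV gene *ocl4* missed only the fold limit, with a log2 fold change of -0.56. It had 49.9 to 64.4 CPM in *Bif3*, against 80.0 to 86.1 CPM in wild-type. The other HD-ZIP IV genes had log2 fold changes between -0.19 and 0.12. These lists are short and say nothing of genes outside them. *RA2*, which the paper reports as down-regulated, was not on them under that symbol. Among the ear and leaf genes summed above, *ra3* (log2 fold change -0.93) and *ME1* (-0.67) passed the threshold, both lower in *Bif3*. The call of *ra3* was lost when any 1 of 4 pools was left out.

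**Figure D5:**
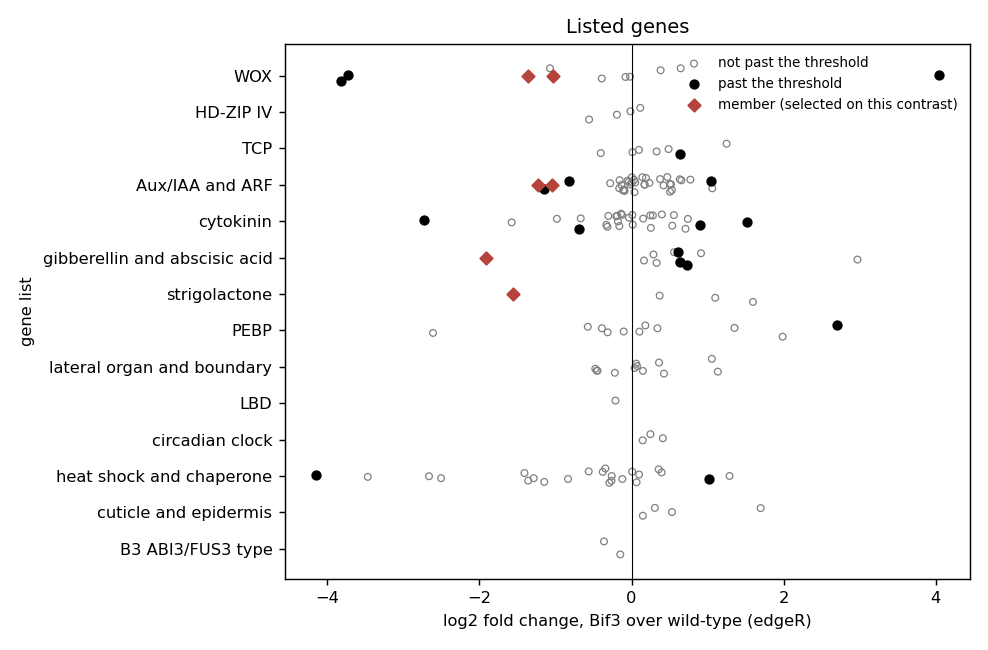
log2 fold change, *Bif3* over wild-type, from the edgeR fit (horizontal axis) for genes of each list (rows, spread vertically for clarity). Filled points passed the threshold, open points did not, and red diamonds are members, which were selected on this contrast. The 17 filled points lie on both sides of 0, 7 lower and 10 higher in *Bif3*.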

How the data were processed

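RNA was measured in 4 pools of *Bif3* and 3 pools of wild-type ear primordia, grouped by their labels. Reads were trimmed by the authors (Trimmomatic), mapped to B73 v3 and assigned to genes by HTSeq-count. The paper names HISAT as aligner, while the processing notes list TopHat2 2.1.1. The libraries were stranded, and the strand setting of the counting is not given in the sources used here. The deposited values are whole-number counts without normalization. Depth was 41720131 to 56057512 counts per pool, and at 1 CPM a wild-type pool holds 41.7 to 56.1 counts. Each pool is a biological replicate of 3 ears.

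CPM used the column totals. The rule needed a wild-type mean of at least 1 CPM, a ratio of at most 0.5 and no overlap of pools. Member names were taken from the annotation columns of the study and a RefSeq gene table (assembly NAM-5.0), whose coordinates were not used. The members and all lists were chosen with earlier results of these data known. The symbols AUX with a number were added to the Aux/IAA list once the gene table was seen, since that table names these genes so. Genes named are the members on a list or with a functional annotation, the 6 with the highest wild-type mean, the 6 with the lowest ratio, the 3 on each side of the limit, those placed next to each other or near *ZmWUS1*, and up to 4 listed genes a list past the threshold.

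Listed genes were tested with edgeR 4.0.16 in R 4.3.3, with the legacy quasi-likelihood fit and TMM scaling, on the 40650 genes with at least 2 counts in total. The threshold was p under 0.05, adjusted p under 0.1 (Benjamini-Hochberg) and a fold change over 1.5. The fit was checked on simulated counts. DESeq2 1.42.0, other scalings, filters, a replicate block and each pool left out were alternatives. Figures were drawn with matplotlib in Python 3.11.15. Closest paralogs and promoter motifs were not analysed here.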

Additional observations from a re-analysis of the deposited data

Results flagged for a closer look

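In 4 of 75 named members and listed genes, 1 of the 4 *Bif3* pools stood apart from the other 3 by Dixon's criterion at the 95% level. Chance alone flags about 1 in 20 groups. *ZmABI41* (*GRMZM5G805685*) had 2.84 CPM in *Bif3* replicate 2, below 4.07 to 4.25 CPM in the other *Bif3* pools. *GRMZM2G118490* had 35.0 CPM in the same pool, below 49.6 to 50.6 CPM in the others. *ZmWUS1* had 12.5 CPM in *Bif3* replicate 4, above 3.83 to 5.25 CPM in the others. *wus2* had 0.0671 CPM in *Bif3* replicate 3, which is 3 counts, with no count in the others. With no count in the others the criterion flags any count at all, so this flag carries no information.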

How the results depend on the processing

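The number of members was 86. It was 92 with TMM-scaled library sizes, 91 with DESeq2's size factors and 114 with a limit of 0.5 CPM. It moved by over 1.5 times with a limit of 2 CPM in wild-type (56), with a ratio limit of 0.4 (50) and with one of 0.667 (195), which follows from how these limits are built. With each pool left out in turn it was between 80 and 157, the highest without wild-type replicate 2. Fewer pools make the limit on overlap easier to meet. The ratios of the 86 members stayed under 0.5 with either other scaling, and leaving out wild-type replicate 1 put 18 of them over 0.5, as did leaving out replicate 3 (18).

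Listed genes called lower numbered 7, and 4 on the genes left by filterByExpr, which are fewer. Without each pool in turn they were between 2 and 11. Listed genes called higher numbered 10, and 16 with DESeq2, and between 7 and 16 with each pool left out. The cause of these moves was not tested. Among all genes, 243 were lower and 1380 higher, and with each pool left out these numbers were 114 to 327 and 687 to 1817.

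Same-numbered pools deviated from their group means with correlations of -0.01, 0.51 and 0.26. *Bif3* replicates 2 and 3 correlated best with the wild-type pools of the same number, but *Bif3* replicate 1 with wild-type replicate 2. The match was partial, and the numbers were not taken to pair the pools. With the replicate number as a block, 11 listed genes were lower and 22 higher. Among all genes 394 were lower and 1994 higher with the block, against 243 and 1380 without it. *Bif3* replicate 4 has no partner in that fit. The comparison of closest paralogs was not run. Members under 2 CPM are limited by depth, since 3 counts are 0.0535 to 0.0719 CPM, and for 5 members a *Bif3* pool was at or under that floor.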
